A study of Mus musculus with 12 samples.

Results

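The clustered protocadherin genes of the mouse were examined for H3K27ac and H3K27me3 in mesenchymal stem cells (MSCs) from young and old animals. The genes were those of the GENCODE annotation whose symbols start with Pcdha, Pcdhb or Pcdhg. A called region was a member when it overlapped such a gene or the 10 kb on either side of it. Of 59664 called regions, 5 met this rule, 2 of 31617 for H3K27ac and 3 of 28047 for H3K27me3. The Pcdha cluster held 1 H3K27ac region and 2 H3K27me3 regions, the Pcdhg cluster held 1 region of each mark, and the Pcdhb cluster held 0 regions of either mark.

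Protocadherins are cell adhesion proteins of the cadherin superfamily. In the alpha and gamma clusters each variable exon has its own promoter and is spliced to constant exons shared by the whole cluster, whereas the beta genes have a single coding exon each. In neurons a few variable promoters are chosen in each cell by DNA methylation, CTCF and cohesin, which gives the cell a surface identity for self-recognition, while the C-type isoforms at the end of the alpha and gamma arrays are used more widely. H3K27ac marks active promoters and enhancers, and H3K27me3 is the mark of Polycomb repression.

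The data came from CUT&RUN, in which an antibody directs a nuclease to a chromatin mark and the released DNA is sequenced. The 12 libraries formed 4 groups of 3, young (3-5 months) and old (18-22 months) for each antibody, and all cells were grown at 2% oxygen. Per the labels, each sample was divided between tubes for both antibodies, and the labels name neither the strain, the sex nor the animals pooled per sample. Nothing in the labels says that replicates were separate animals, so p-values measure only the spread between these samples.

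Library totals were recovered from the deposited values on an assumed length of 0.5 kb. They were 2750953 to 5541429 reads for H3K27ac and 3622108 to 9947515 reads for H3K27me3, and old replicate 2 was the shallowest in both marks. The start of 7 of 7 MSC marker genes (Ly6a, Pdgfra, Pdgfrb, Prrx1, Thy1, Nt5e and Eng) lay in an H3K27ac region, against 0 of 5 blood, 0 of 4 endothelial and 0 of 5 neuronal markers. The summed H3K27ac signal of the MSC markers was 751 to 820 in young and 753 to 811 in old libraries. This sum is not divided by region length, and Prrx1 (354.5) and Pdgfrb (182.7) weighed most in it. H3K27me3 covered the start of 5 of 5 neuronal, 3 of 4 endothelial, 2 of 5 blood and 1 of 7 MSC markers.

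The 3 clusters lie in a row on the forward strand of chromosome 18 (mm10), from 36930184 to 37841873, and their 58 gene models span 911.69 kb. Pcdha (14 models) runs from 36930184 to 37187661, Pcdhb (22 models) from 37264938 to 37524479, and Pcdhg (22 models, 1 of them a pseudogene) from 37661793 to 37841873. Marked chromatin lay at the 3′ ends of the alpha and gamma arrays and just before the gamma array, as the map of the locus shows. Of the whole locus, 4.87% was covered by H3K27ac regions and 2.52% by H3K27me3 regions, against 11.9% and 22.4% of the genome. The Pcdhg span was covered to 21.9% by H3K27ac and to 0% by H3K27me3. The Pcdha span was covered to 0.777% by H3K27ac and to 5.44% by H3K27me3. Of the 5 members, 0 overlapped a called region of the other mark. Such overlap was found for 15.7% of all H3K27ac and 14.9% of all H3K27me3 regions, so a count of 0 among 5 says little about the locus.

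**Figure D1:**
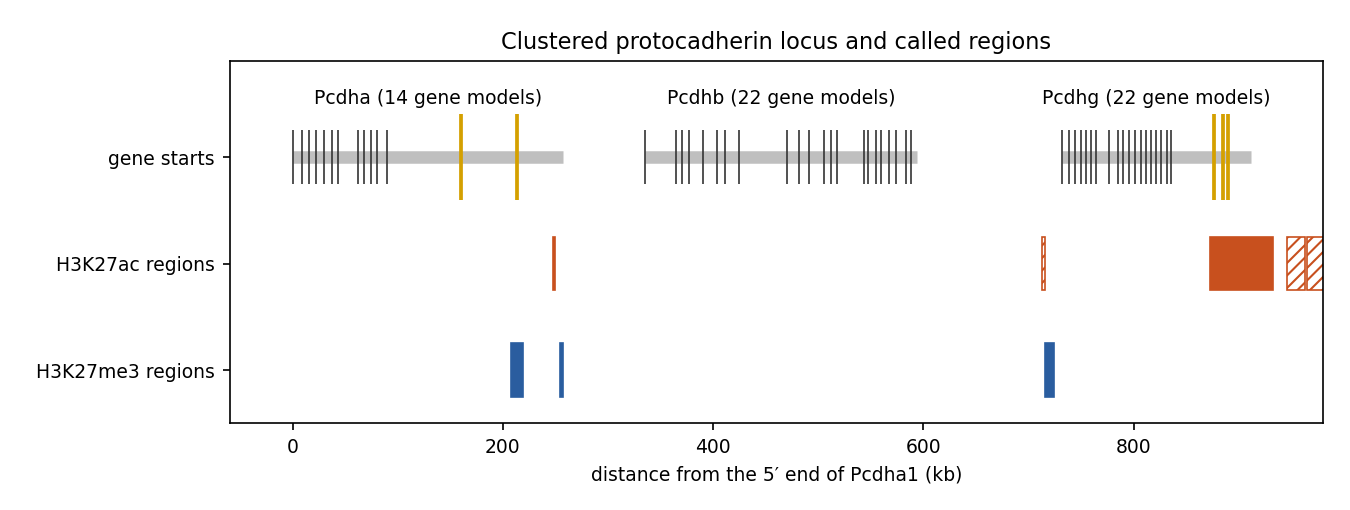
Gene starts and called regions along the locus, against the distance in kb from the 5′ end of Pcdha1. Black ticks are starts of variable genes, yellow ticks are starts of the 5 C-type genes, grey bars are the clusters, filled boxes are the 5 members (orange H3K27ac, blue H3K27me3), and hatched boxes are H3K27ac regions outside the 10 kb limit, the last drawn in part. No box lies over the Pcdhb cluster.

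The largest member was an H3K27ac domain of 60.0 kb at the 3′ end of the gamma cluster (chr18:37802501-37862500). It covered the starts of Pcdhgc3 (37806364), Pcdhgc4 (37815079) and Pcdhgc5 (37819513), the C-type gamma genes, together with their variable exons, the introns behind them and the constant exons that every gamma transcript shares. It also held the starts of the antisense genes BC037039 and Gm29994, the transcript Gm38182 and the microRNA gene Mir6979. Beyond the cluster it ran over 18900 bp of the 3′ part of Diaph1, an actin-nucleating formin on the opposite strand, whose start at 37935476 lay outside it. Signal in the domain cannot be divided among these genes, since the table gives 1 value for the region.

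The signal is proportional to the reads of a region as a share of all reads of its library, and was compared after median-of-ratios scaling between the libraries of a mark. In the gamma domain it was 168.9, 170.8 and 174.3 in young replicates 1 to 3 and 163.0, 193.4 and 191.1 in old replicates 1 to 3, from 246 to 530 reads a library. The young libraries lay close together and inside the range of the old ones, so the groups overlapped. The domain was at the 98.5 percentile of all H3K27ac regions in signal and at the 86.6 percentile in signal per kb (2.95). Among the 1119 H3K27ac regions of at least 50 kb its signal per kb was at the 85.3 percentile. Mean signal was 171.3 ± 2.76 (SD, n = 3) in young and 182.5 ± 16.9 (SD, n = 3) in old cells. The log2 fold change of old against young was 0.09 (SE 0.08, 95% interval -0.08 to 0.25, limma, Benjamini-Hochberg adjusted p = 0.783). It ranged from 0.04 to 0.17 with 1 library left out, the lowest without old replicate 2 and the highest without old replicate 1, and it was -0.03 on the values as deposited, where the median of all H3K27ac regions was itself -0.12. In bulk libraries such as these, fewer cells with a mark and less of the mark per cell cannot be told apart.

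The other H3K27ac member was short, 2.0 kb (chr18:37177501-37179500), and lay in the last intron of the alpha genes, between constant exons that all Pcdha transcripts share. It held 0 bp of Pcdha exon and covered the start of Gm10544 (37178522), a non-coding transcript of the opposite strand. Enhancers that contact the variable promoters are known from the constant part and the 3′ side of the clusters in neurons. Reads were few: 18, 7 and 9 in young replicates 1 to 3, and 18, 6 and 9 in old replicates 1 to 3. The signals were 5.88, 4.04 and 2.96 in young and 7.17, 4.72 and 4.59 in old libraries. The groups overlapped, with replicate 1 the highest at either age. The region was at the 21.3 percentile of H3K27ac regions in signal and, being short, at the 66.1 percentile in signal per kb (2.45). Its log2 fold change was 0.34 (SE 0.36, 95% interval -0.39 to 1.07, limma, adjusted p = 0.818), so no difference was detectable at this depth.

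H3K27me3 lay over a C-type gene of the alpha cluster. A region of 11.5 kb (chr18:37137501-37149000) covered the start of Pcdhac2 (37143503) with 3028 bp of its exon, of which 2562 bp are coding and 466 bp untranslated, and reached into the intron behind it. The signal was 28.2, 29.0 and 30.9 in young and 26.4, 31.8 and 28.5 in old replicates 1 to 3, from 56 to 144 reads a library. The young values lay within the range of the old ones. Per kb (2.53) the region was at the 92.6 percentile of all H3K27me3 regions. The log2 fold change was -0.02 (SE 0.13, 95% interval -0.30 to 0.25, limma, adjusted p = 0.959), and it was 0.01 without young replicate 3 and 0.04 without old replicate 1.

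A second H3K27me3 region of the alpha cluster, 2.5 kb (chr18:37184501-37187000), lay over the 3′ end of the cluster, with 2055 bp of the last constant exon, 308 bp coding and 1747 bp in the 3′ untranslated part. Its signal was 4.15, 3.62 and 3.66 in young and 2.84, 3.41 and 6.02 in old replicates 1 to 3, from 6 to 21 reads a library. Old replicate 3 was the highest library and the other two old libraries were the lowest. The log2 fold change was 0.03 (SE 0.30, 95% interval -0.59 to 0.66, limma, adjusted p = 0.976). It was -0.08 on the values as deposited and -0.25 without old replicate 3. With 1.58 signal units per kb the region was at the 60.2 percentile of H3K27me3 regions, and it began 5.0 kb after the end of the H3K27ac region in the preceding intron.

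The member of the gamma cluster for H3K27me3 covered none of its genes. It was 9.0 kb long (chr18:37645501-37654500) and ended 7.29 kb before the start of Pcdhga1 (37661793), the first gamma gene, so it was a member through the 10 kb flank alone. The region lay wholly in introns of the protein-coding models Gm42416, Gm37013 and Gm37388, which start within the alpha array and overlap every member. It also held the start of Gm8242 (37654172), a transcribed processed pseudogene. Its signal was 26.3, 25.6 and 23.0 in young and 21.2, 17.1 and 22.5 in old replicates 1 to 3, from 30 to 133 reads a library. Every old library was below every young one. In 19.1% of all H3K27me3 regions the groups likewise did not overlap, in either direction. Mean signal was 24.9 ± 1.71 (SD, n = 3) in young and 20.2 ± 2.84 (SD, n = 3) in old cells. The log2 fold change was -0.30 (SE 0.15, 95% interval -0.61 to 0.01, limma, adjusted p = 0.379). It was -0.18 (adjusted p = 0.624) without old replicate 2, the shallowest library, and -0.42 (adjusted p = 0.126) on the values as deposited, where the median of all H3K27me3 regions was -0.13.

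The region next to it in the tables fell outside the limit. This H3K27ac region of 3.0 kb (chr18:37642501-37645500) ended directly before the H3K27me3 region, 16.3 kb from Pcdhga1, and covered the start of Taf7 (37644204), a gene for a subunit of the general transcription factor TFIID. Its signal was 9.11 ± 2.41 (SD, n = 3) in young and 9.48 ± 2.73 (SD, n = 3) in old cells. On the other side, the next H3K27ac regions lay inside Diaph1, 34.1 and 53.1 kb past the end of the gamma cluster.

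**Figure D2:**
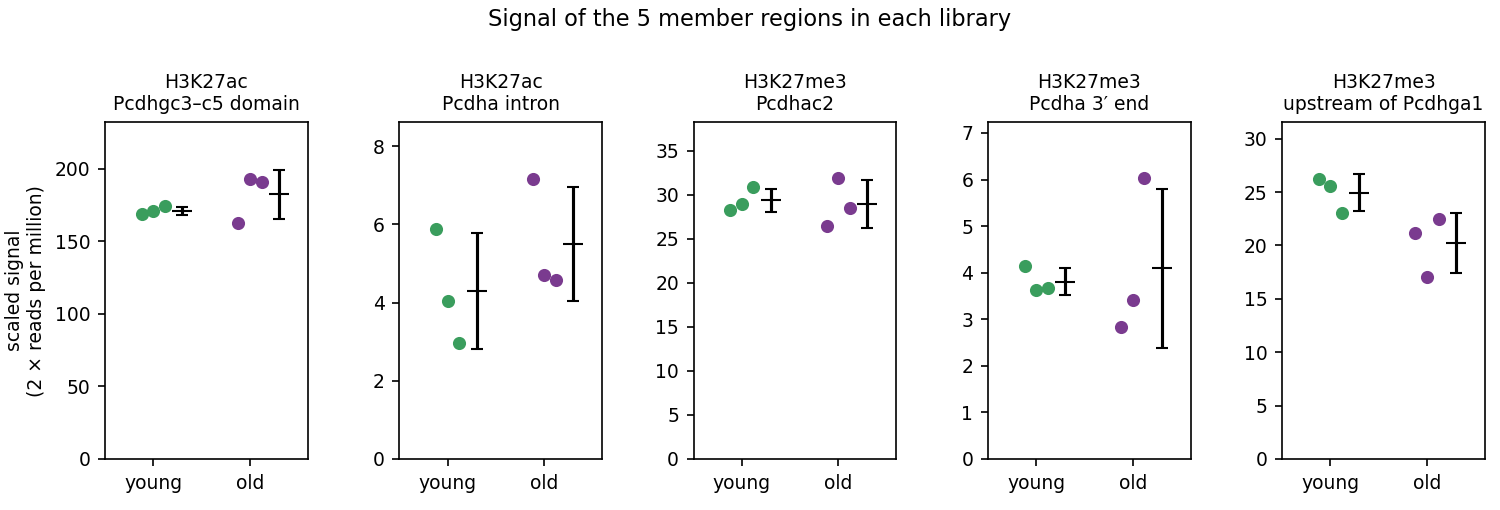
Scaled signal of the 5 members in each library, 1 panel a region, each with its own axis from 0; points are replicates 1 to 3 from left to right, and bars are the mean ± SD of 3 libraries. Young and old points overlap in the first 4 panels, and in the last panel the old libraries (17.1 to 22.5) are below the young ones (23.0 to 26.3).

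Across the members, then, 0 of 2 H3K27ac regions and 0 of 3 H3K27me3 regions were called at an adjusted p under 0.05 in old against young cells. Over all regions 0.0822% of H3K27ac regions and 0.488% of H3K27me3 regions were called, so a count of 0 among 5 says little about the locus. At an unadjusted p under 0.05, 0 of the 5 members passed, against 9.6% of H3K27ac and 13.9% of H3K27me3 regions. edgeR and DESeq2 on whole reads called 0 of the 5 as well, although DESeq2 gave no adjusted p for 4 of them. Each member was listed by the authors as present in both ages, as were 99.2% of H3K27ac and 96.9% of H3K27me3 regions.

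The clusters were also compared as sums over their regions. Only the Pcdha H3K27me3 sum joined 2 regions. Each other sum held 1 region and restates the values of that member, so it is no further evidence. The Pcdhg H3K27me3 sum is the region before Pcdhga1, which covers no gamma gene. Summed H3K27me3 signal of Pcdha was 33.2 ± 1.18 in young and 33.0 ± 3.28 in old cells (SD, n = 3; log2 difference -0.01, two-sided exact permutation p = 1.0). For Pcdhg H3K27me3 the difference was -0.30 with p = 0.1, the smallest value that 3 libraries against 3 can give (adjusted p = 0.4 over 4 exact permutation tests). For H3K27ac the differences were 0.34 in Pcdha and 0.09 in Pcdhg (exact permutation p = 0.4 for each, adjusted p = 0.533). No sum could be formed for Pcdhb.

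The signal per kb of called region was compared between the alpha and gamma clusters within each library. For H3K27ac the log2 density of Pcdha minus that of Pcdhg ranged from -0.97 to 0.40 with a mean of -0.32 ± 0.48 (SD, n = 6) and was above 0 in 2 of 6 libraries (two-sided exact sign-flip permutation p = 0.156, adjusted p = 0.3125 over 2 tests). For H3K27me3 it ranged from -0.34 to 0.41 with a mean of -0.08 ± 0.27 (SD, n = 6) and was above 0 in 1 of 6 libraries (exact permutation p = 0.531). With 1 library left out the H3K27ac mean lay between -0.47 and -0.19, and the H3K27me3 mean between -0.17 and -0.024. The lowest H3K27me3 value came without old replicate 2, the shallowest library and the one above 0 (exact permutation p = 0.062, the smallest that 5 libraries allow). The signed old minus young log2 difference of H3K27ac was 0.34 in Pcdha and 0.09 in Pcdhg, and these differed by 0.29 when computed on the signal per kb (exact permutation p = 0.5). For H3K27me3 it was -0.01 in Pcdha and -0.30 in Pcdhg, which differed by 0.30 (exact permutation p = 0.2). The gamma sum for H3K27ac includes the stretch over Diaph1.

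Gene starts showed which promoters carried a mark. A start was counted as marked when a region lay within 1 kb of it. H3K27ac marked 3 of the 58 starts (Pcdhgc3, Pcdhgc4 and Pcdhgc5), H3K27me3 marked 1 (Pcdhac2), and 54 (93.1%) had neither mark. Of 21938 protein-coding starts in the genome, 51.6% carried H3K27ac, 33.3% carried H3K27me3 and 22.5% carried neither. All 22 Pcdhb starts, 13 of 14 Pcdha starts and 19 of 22 Pcdhg starts were without a mark. The 4 marked starts all belonged to the 5 C-type genes, and the fifth, Pcdhac1, had no region nearer than 47.5 kb. The other 53 starts had no region within 1 kb. This grouping by C-type was made after the values were seen and is given as a description.

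Base composition followed the same line in part. CpG-rich was defined as at least 50% G + C and a CpG observed to expected ratio of at least 0.6 in the 1 kb around the start. Only 3 of the 58 starts met both limits, Pcdhgc3 (58.1% G + C, ratio 0.80), Pcdhac2 (57.8%, 0.68) and Pcdhgc4 (50.4%, 0.67), and all 3 carried a mark. In the genome 9740 of 21938 starts were CpG-rich, and 2.44% of those had neither mark, against 38.5% of the starts that were not CpG-rich. Among the clustered protocadherin starts that were not CpG-rich, all but Pcdhgc5 had neither mark, a far larger share than that 38.5%. Pcdhgc5 was marked with a ratio of only 0.23, and it lay inside the same domain as Pcdhgc3 and Pcdhgc4. Pcdhac1 was unmarked with 55.9% G + C and a ratio of 0.56. The other 53 starts had at most 49.9% G + C. The cluster medians were 45.4% for Pcdha and 47.05% for Pcdhg, with CpG ratios of 0.68 and 0.61. Pcdhb was the poorest, with medians of 41.35% and 0.38.

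**Figure D3:**
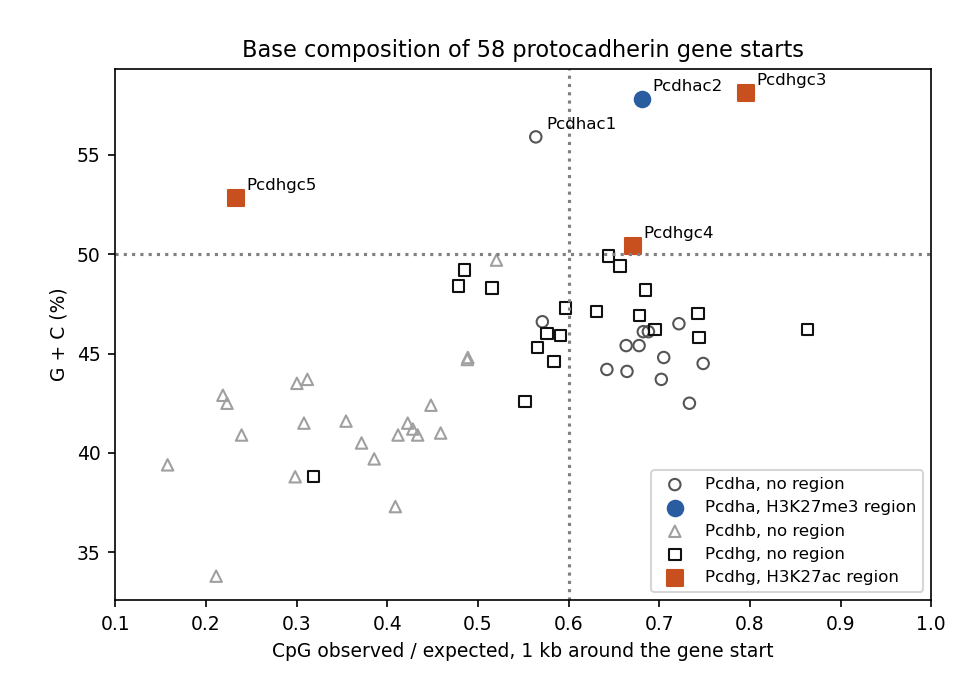
G + C content against the CpG observed to expected ratio in the 1 kb around each of the 58 gene starts; open symbols have no region within 1 kb, filled orange squares have H3K27ac and the filled blue circle has H3K27me3, and dotted lines mark the CpG-rich limits of 50% and 0.6. The 3 starts in the upper right field are all marked, and the Pcdhb triangles lie to the lower left.

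Most of the locus lay in 3 stretches with no region of either mark. The first, of 320.0 kb (chr18:36817501-37137500), held 13 Pcdha starts. The second, of 455.5 kb (chr18:37187001-37642500), held all 22 Pcdhb starts. The third, of 148.0 kb (chr18:37654501-37802500), held 19 Pcdhg starts, from Pcdhga1 to Pcdhga12. Among 52361 such stretches between regions, whose median length was 8.0 kb, they ranked 48, 34 and 43 by the number of protein-coding starts they held (16, 23 and 18). The tables list called regions only, so a gene between them has an unknown level rather than a level of 0, and no limit can be given for it. Repeated sequence can also lower read density in a gene family. Of 32-base words, 77.4% in the Pcdha span, 79.6% in the Pcdhb span and 93.4% in the Pcdhg span occurred once in the genome, against 86.8% of sampled positions on chromosome 18. Within exons the shares were 82.0%, 89.5% and 92.9%. The part of repeated sequence in the lack of regions was not tested.

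The non-clustered protocadherins, which lie outside the 3 clusters and also act in adhesion and neural development, were read for comparison. The H3K27me3 regions over Pcdh1 (chr18:38186501-38236000) and Pcdh12 (chr18:38280001-38292000) are also on chromosome 18, past the gamma cluster. Of 12 such genes, 9 had H3K27me3 within 1 kb of the start (Pcdh1, Pcdh8, Pcdh9, Pcdh10, Pcdh11x, Pcdh12, Pcdh15, Pcdh17 and Pcdh20). H3K27ac lay there in 3 (Pcdh7, Pcdh9 and Pcdh18). Pcdh9 had both marks. Side by side, H3K27me3 signal per kb in young cells was 4.78 ± 0.24 over Pcdh8, 3.46 ± 0.19 over Pcdh10, 2.55 ± 0.12 over Pcdhac2 and 1.67 ± 0.19 over Pcdh9 (SD, n = 3). Pcdhac2 was seventh of these 10 starts in young cells.

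Their 15 H3K27me3 regions had a median log2 fold change of -0.18, beside -0.01 over all H3K27me3 regions. Of the 15, 0 were called, and 6 had an unadjusted p under 0.05, all 6 lower in old cells, where 8.73% of all H3K27me3 regions were lower and 5.16% higher at that level. In 5 of the 15 the groups did not overlap (19.1% of all). The widest was that of Pcdh1, 49.5 kb, with 155.9 ± 3.48 in young and 119.5 ± 18.2 in old cells (SD, n = 3; log2 fold change -0.39, SE 0.10, limma, adjusted p = 0.0826). Pcdh15, known for its part in the hair cells of the inner ear, had a log2 fold change of -0.39 (limma, adjusted p = 0.137), and Pcdh10 one of -0.35 (limma, adjusted p = 0.185). Their 16 H3K27ac regions had a median of 0.09 with 0 called and 0 under an unadjusted p of 0.05. The summed H3K27me3 signal over the marker starts was 552 to 571 in young and 501 to 532 in old libraries for the neuronal list, 359 to 374 and 316 to 356 for the endothelial list, 758 to 821 and 652 to 771 for the blood list, and 8.69 to 10.2 and 8.51 to 13.6 for the MSC list. These sums are not divided by region length, so single regions of high signal weigh most in them. H3K27me3 signal was 703.5 over Cd3e in the blood list and 374.6 over Rbfox3 in the neuronal list. The MSC sum was that of Nt5e alone. The ranges therefore do not show a change across each list. By the recovered totals, called H3K27me3 regions held 62.3%, 66.6% and 66.6% of the reads in young replicates 1 to 3. In old replicates 1 to 3 they held 60.8%, 59.6% and 53.8%, so every old library was below every young one. The part of this lower share, or of the genes on these lists, in the protocadherin values was not tested.

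**Figure D4:**
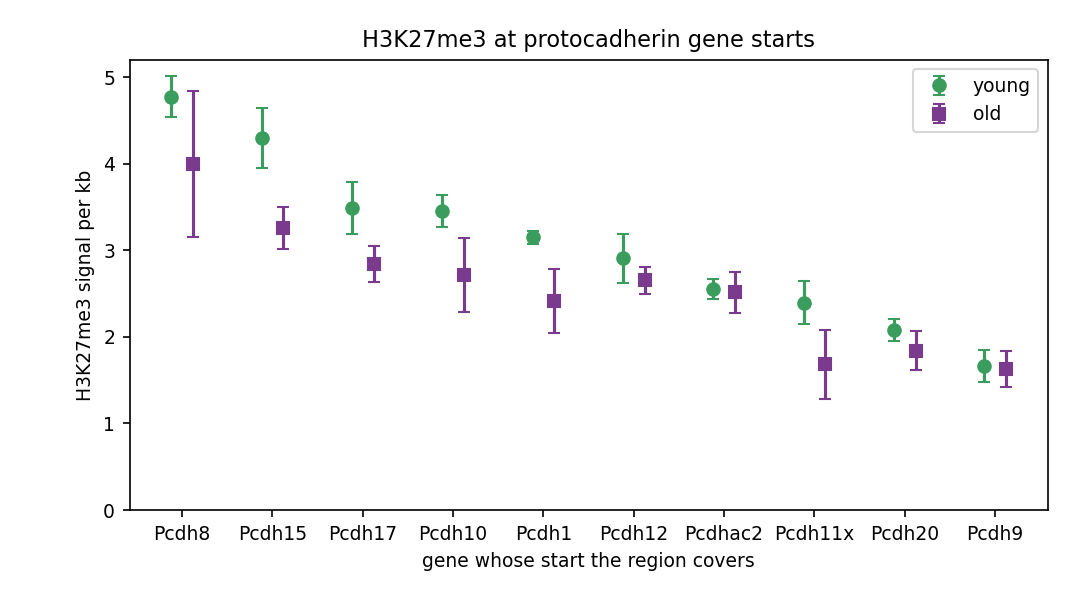
H3K27me3 signal per kb of the region within 1 kb of the start of 9 non-clustered protocadherin genes and of Pcdhac2, ordered by the young mean. Points are means and bars the SD of 3 libraries at each age. The Pcdhac2 means are 2.55 in young and 2.52 in old cells, and the means of the other 9 are lower in old cells, with an adjusted p of 0.0826 or more for each.

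The genes that control promoter choice in the clusters were read from a list of 13. It held Ctcf, which binds the promoters and enhancers, the cohesin subunits Rad21, Smc1a, Smc3, Stag1 and Stag2, the cohesin loader Nipbl and its release factor Wapl. It also held the silencers Smchd1, Setdb1, Trim28 and Wiz and the DNA methyltransferase Dnmt3b. H3K27ac lay within 1 kb of the start of 8 of the 13 (Ctcf, Rad21, Smc1a, Smc3, Stag2, Nipbl, Wapl and Smchd1). H3K27me3 lay within 1 kb of the start of 2 (Dnmt3b and Wiz). Of all protein-coding starts, 51.6% carried H3K27ac and 33.3% carried H3K27me3. Over the gene plus 10 kb on each side, 12 of the 13 genes had an H3K27ac region and 7 had an H3K27me3 region. Of their 41 H3K27ac regions 0 were called, 4 were higher and 1 lower in old cells at an unadjusted p under 0.05, and the median log2 fold change was 0.04. At that level 4.63% of all H3K27ac regions were higher and 4.97% lower. The domain over Ctcf had a signal of 180.4 ± 15.3 in young and 195.1 ± 18.0 in old cells (SD, n = 3; limma, adjusted p = 0.706). The region over Smchd1 had 21.5 ± 3.88 and 20.5 ± 1.23 (SD, n = 3; limma, adjusted p = 0.959). Of the 14 H3K27me3 regions 0 were called, and that over Wiz had a log2 fold change of -0.29 (limma, adjusted p = 0.188).

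Among 4 genes that act with protocadherins at the membrane, the kinases Ptk2, Ptk2b and Fyn had H3K27ac within 1 kb of their starts. The atypical cadherin Celsr3 did not. H3K27me3 lay within 1 kb of the starts of Ptk2b, Fyn and Celsr3. At Ptk2b the regions of both marks adjoined without overlap, H3K27ac up to 66281500 and H3K27me3 from 66281501. Of their 23 H3K27ac regions 0 were called and 5 were higher and 0 lower at an unadjusted p under 0.05 (4.63% and 4.97% of all H3K27ac regions), with a median log2 fold change of 0.12. Those 5 regions lay at Ptk2 (2), Fyn (2) and Ptk2b (1), and none of them was the region at a start. The H3K27ac regions at the starts had log2 fold changes of -0.16 at Ptk2, -0.17 at Ptk2b and 0.09 at Fyn. Their adjusted p values were 0.652, 0.687 and 0.903 (limma). Of the 4 H3K27me3 regions of these genes 0 were called.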

How the data were processed

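CUT&RUN regions of 12 libraries were read from 1 table per mark. The authors deposited a signal for each called region and library, named RPKM in the tables. The values had not been divided by region length. In all 12 columns 100% of values were whole multiples (tolerance 0.02) of 1 unit per column. The unit was fitted to the column and taken as the RPKM of 1 read in 0.5 kb. Whole reads were recovered with this unit. Library totals rest on the assumed 0.5 kb, which the whole multiples do not test. The signal is then proportional to the share of a library's reads. The planned tests assumed RPKM and were kept. Regions lay on a grid of 500 bp. Per the labels, Bowtie2, Picard and the builds mm10 and GRCm38 were used in processing, with neither roles nor versions. The region caller was not given in the sources used here. Gene models were GENCODE vM21 basic, on GRCm38. The supplied publication does not report these libraries and served for style only.

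Libraries were scaled within each mark by median-of-ratios factors. After addition of a pseudocount of 0.5, the log2 values of the whole table entered limma 3.58.1 in R 4.3.3 (variance trend, robust, two-sided, Benjamini-Hochberg over all regions, called at an adjusted p under 0.05). Fold changes are on the log2(signal + 0.5) scale, which understates changes of low regions. No filter was applied. Marks were tested apart, since their tables were made separately. Cluster sums were compared by exact permutation over libraries, and Pcdha with Pcdhg by exact sign flips over the 6 libraries of a mark. These p-values were adjusted over the 4 and 2 tests that could be computed. All 5 members are named, by rule. The members and gene lists were chosen with earlier results of these data known. Alternatives were edgeR 4.0.16 and DESeq2 1.42.0 on the recovered reads, other scalings, pseudocounts, a filter, a replicate block, other flanks and leaving out each library. The fits were tested on simulated data. The labels name no batch. Planned results for Pcdhb (6) could not be computed for want of regions. Replicates of a group differed by more than sampling noise, and 0 columns were left unused.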

Additional observations from a re-analysis of the deposited data

How the results depend on the processing

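Of the values for the 5 members, 63 of 68 kept their direction under the alternatives, and 0 passed an adjusted p of 0.05. The other 5 changed sign: the gamma H3K27ac domain to -0.032 and the alpha 3′-end region to -0.078 on the values as deposited, the latter to -0.25 without old replicate 3, and the Pcdhac2 region to 0.012 without young replicate 3 and 0.039 without old replicate 1. The replicate block and the filter on low regions cannot change a fold change, so their kept directions add no support. With 1 library left out, the alpha 3′-end region ranged from -0.25 to 0.23 and the Pcdhac2 region from -0.092 to 0.039. Leaving out 1 library moved the gamma H3K27ac domain between 0.043 and 0.17, the alpha intron region between 0.13 and 0.57, and the region before Pcdhga1 between -0.38 and -0.18. Of the cluster results, the Pcdhg H3K27ac sum became -0.032 as deposited, the Pcdha H3K27me3 difference became 0.0039 as a median over regions and ranged from -0.058 to 0.073 with 1 library left out, and counting per kb of the whole span gave -5.70 for H3K27ac and 0.090 for H3K27me3 between Pcdha and Pcdhg. These last values restate the lengths of the called regions, which all libraries share, with uncalled sequence taken as 0, and the Pcdhg H3K27me3 reads come from a region outside its span, so they support no difference between the clusters.

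Counts over all regions depended on the setting. For H3K27ac, 26 regions were called, 105 as deposited, 14 and 45 with pseudocounts of 0.1 and 1, 96 by edgeR, 6 by DESeq2 and 2 to 45 with 1 library left out. For H3K27me3, 137 were called, 774 as deposited, 71 with a pseudocount of 0.1, 81 without the regions of lowest signal, 394 by edgeR, 76 by DESeq2 and 10 to 313 with 1 library left out. As deposited, 33.0% of H3K27ac and 29.1% of H3K27me3 regions were higher in old cells, against 49.6% and 48.6% after scaling. With the replicate number as a block, 81 and 309 regions were called, and no member changed its call. The numbers are shared by name only: deviations of same-numbered libraries correlated at -0.05 to 0.07 for H3K27ac and -0.08 to 0.04 for H3K27me3, and not every library correlated best with its own number. The cause of these shifts was not tested.

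Without flanks the Pcdhg cluster had no H3K27me3 region, and with 50 kb it had 3 H3K27ac regions, while Pcdhb had 0 at any flank. The filter on low regions removed the alpha intron and alpha 3′-end regions, so these have no value there. The short members rest on 6 to 21 reads a library.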

Other observations

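Of the stretches with no region of either mark, 33 held more protein-coding starts than the one over Pcdhb, which held 23. In 16 of them most of those genes were olfactory receptor genes (Olfr), and in 5 most were vomeronasal or formyl peptide receptor genes. These families are likewise arrayed in clusters and used in sensory neurons. In the rest of the 33, neither group made up most of the genes. The stretch with the most starts, 234, was on chromosome 2 over Olfr genes and was 5137.0 kb long. These values are a description of position and carry no test.

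The H3K27ac region that lies 53.1 kb past the gamma cluster (chr18:37895001-37913000), inside Diaph1, had a signal of 22.9 ± 1.34 in young and 29.6 ± 3.96 in old cells (SD, n = 3), and its groups did not overlap, as in 14.5% of all H3K27ac regions. The difference was 0.36 ± 0.17 (SE) on the log2 scale (limma, adjusted p = 0.499). It was chosen after its values were seen.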
